A study of Mus musculus with 14 samples.

Results

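The regions described here are stretches of open chromatin that carried an ATAC-seq peak both in control 4T1 cells and at every length of hypoxia examined, and whose signal ranked lower in hypoxia than in the controls. They were chosen by measured values. Peaks of 7 peak lists, 1 per condition, were merged where they overlapped or touched into 108795 regions, of which 36113 (33.2%) held a peak in every list. The highest fold enrichment of each shared region was turned into a percentile from 0 to 100 within its own list, and a region was kept where the control percentile lay at least 20 above the mean of the 6 hypoxia percentiles. This left 3000 regions, 8.31% of the shared regions. The opposite rule, hypoxia above the control by 20 or more, picked 3225 regions (8.93%), called the strengthened regions below, and the 3000 are called the weakened regions. Percentiles rank regions within a list, so a region can weaken in rank while all regions of a list gain or lose signal together.

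ATAC-seq reads open chromatin through the Tn5 transposase, which inserts sequencing adapters into DNA that nucleosomes leave free. 4T1 is an epithelial mouse mammary tumor line. Its cells were cultured as controls, the samples titled Ctrl, or at 1% oxygen for 1 of 6 times between 6 and 72 h. The middle times were 12, 24, 36 and 48 h, and there were 14 samples with 2 replicates per condition. The hypoxic cells were fixed before they left the low-oxygen workstation, and the labels give no oxygen level for the controls and repeat the low-oxygen culture text for them. A legend in the study describes its control 4T1 cells as kept at less oxygen than air holds, so they are called controls here. Each peak list came from the pooled reads of both replicates, so no value below has a replicate error, and no test between conditions was possible from these lists. The study's own comparison with the controls reported few DNA elements that lost access in hypoxia, and more that gained it. The weakened regions are defined by rank within a list and are not a count of such elements.

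Low oxygen stabilizes the alpha subunits of hypoxia-inducible factors (HIF), which bind short DNA sequences at genes of glycolysis, pH control and growth factor signalling. Open chromatin in epithelial tumor cells lies at promoters and at distal elements, many of which hold the sequence bound by AP-1, the Fos and Jun family. CTCF is a zinc-finger protein that binds a long sequence of its own, mostly away from promoters, and together with cohesin sets the ends of chromatin loops.

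Of the sequences found in more than 60 shared regions, that of CTCF had the highest ratio of its frequency in the weakened regions to that in all shared regions, and 6 weakened regions with it are shown for that reason. They were the weakened regions with a CTCF match that had the largest differences of percentiles, taken after the values were known. Each line gives the match in capitals with the bases next to it in lower case, 5′ to 3′ on the strand of the match, read from NCBIM37, the assembly of mm9. The lines come from chr14:41792434-41792493 (plus strand, 12170 bp from the nearest start, that of Tspan14), chr11:109482707-109482766 (minus strand, 9139 bp from the start of Wipi1), chr10:116471027-116471086 (minus strand, 10991 bp from the start of Lrrc10), chr9:35342806-35342865 (minus strand, 22959 bp from the start of Ddx25), chr10:125432134-125432193 (minus strand, in an intron of Lrig3) and chr2:133619189-133619248 (plus strand, 240981 bp from the start of Bmp2). All but the Lrig3 site were intergenic.
CTCF near Tspan14: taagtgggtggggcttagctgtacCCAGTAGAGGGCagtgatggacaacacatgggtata
CTCF near Wipi1: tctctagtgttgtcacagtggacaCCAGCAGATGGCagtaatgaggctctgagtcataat
CTCF near Lrrc10: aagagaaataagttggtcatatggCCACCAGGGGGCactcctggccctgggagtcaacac
CTCF near Ddx25: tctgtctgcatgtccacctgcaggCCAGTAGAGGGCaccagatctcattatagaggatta
CTCF in Lrig3: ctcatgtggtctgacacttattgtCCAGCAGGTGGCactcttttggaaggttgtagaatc
CTCF near Bmp2: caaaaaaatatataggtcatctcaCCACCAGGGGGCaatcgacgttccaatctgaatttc

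Further matches are shown because they lie in regions named in the results below. They are the AP-1 sequence in an intron of B4galnt3 (chr6:120187506-120187560, plus strand) and near Mkln1 (chr6:31274897-31274951, minus strand), the E-box CACGTG at the promoters of Ldha (chr7:54101102-54101155, plus strand) and Tiam1 (chr16:89973457-89973510, plus strand), and the RUNX sequence TGTGGT in an intron of Suclg2 (chr6:95619455-95619508, minus strand). Capitals again mark the match. A match is a run of letters, and binding was not measured.
AP-1 in B4galnt3: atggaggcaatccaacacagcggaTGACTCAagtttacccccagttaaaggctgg
AP-1 near Mkln1: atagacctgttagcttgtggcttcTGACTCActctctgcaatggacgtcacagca
E-box at Ldha: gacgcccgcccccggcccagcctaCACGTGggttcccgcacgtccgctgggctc
E-box at Tiam1: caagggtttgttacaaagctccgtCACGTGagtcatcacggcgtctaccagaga
RUNX in Suclg2: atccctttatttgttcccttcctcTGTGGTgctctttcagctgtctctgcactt

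The weakened regions sat in the upper middle of the control list and in the lower middle of every hypoxia list. Their median percentile was 67.7 in the controls, with quartiles at 54.7 and 80.3. In hypoxia it was 34.8, 42.7, 39.2, 35.1, 37.6 and 32.6, in order of time, lowest at 72 h and highest at 12 h. These percentiles chose the regions and are given as a description. The median fold enrichment, the reads at a summit over the local background with 1 added to each, was 9.87 in the controls against 8.19 over all shared regions. After 6, 12 and 72 h of hypoxia it was 4.94, 8.38 and 5.68, against 5.85, 8.98 and 6.88 over all shared regions.

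**Figure D1:**
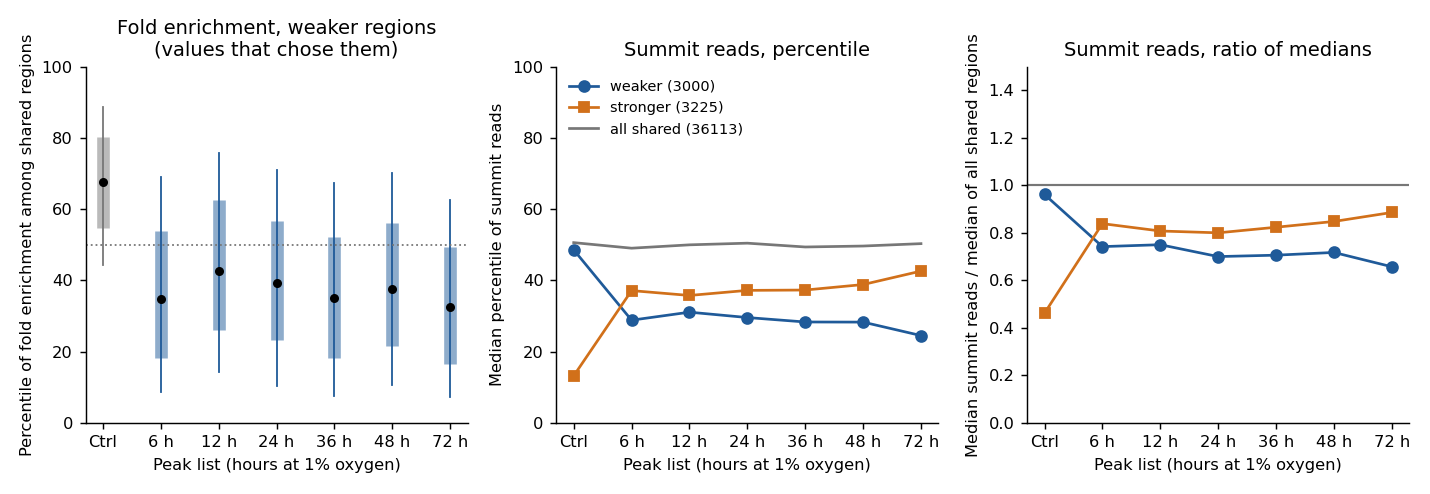
Left, the percentile of fold enrichment in each peak list over the 3000 weakened regions, with the median (point), quartiles (bar) and 10th to 90th percentile (line), where the control median of 67.7 stands above all 6 hypoxia medians. Middle and right, the median percentile of summit reads, and the median summit reads divided by those of all shared regions, for the weakened and strengthened regions, where the weakened regions fall from 0.962 in the controls to between 0.657 and 0.750 in hypoxia. Reads are part of the fold enrichment that chose both kinds of region.

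The reads at each summit were recovered from the fold enrichment and its p-value, and they carry the depth of each value. The weakened regions had a median of 25 summit reads in the controls, close to the 26 over all shared regions. At 6, 12 and 24 h they had 23, 39 and 28 reads where all shared regions had 31, 52 and 40. At 36, 48 and 72 h they had 24, 33 and 23 reads where all shared regions had 34, 46 and 35. The ratio to all shared regions was thus 0.962 in the controls and lay between 0.657 (72 h) and 0.750 (12 h) in hypoxia. Reads are part of the fold enrichment that chose the weakened and strengthened regions. Their fall or rise follows in part from the rule and is given as a description. The strengthened regions differed in another way. They had 0.462 of the reads of all shared regions in the controls and 0.800 to 0.886 in hypoxia, so the weakened regions had fewer reads than the strengthened ones at every hypoxia time.

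With so few reads most single regions could not be placed firmly. When the control reads of a region were set to the lower bound of their 95% Poisson interval, which covers counting error only, 24 of the 3000 regions (0.800%) stayed 20 percentiles above the hypoxia mean and 753 (25.1%) stayed above it at all. The hypoxia values and the local background were held as observed, so the counting error of the difference is only partly covered. The choice of measure also mattered for single regions. Ranked by summit reads instead of fold enrichment, 2962 of the weakened regions (98.7%) stood lower in hypoxia. The share of all shared regions lower at all was 51.45% by fold enrichment and was not computed by reads. By 20 or more in reads, 1206 (40.2%) were lower, where 5.29% of all shared regions met that rule. Ranked by −log10 q, 2038 (67.9%) were lower by 20 or more, where 7.33% of all shared regions were. Reads and −log10 q come from the same peaks as the fold enrichment that chose the regions, so agreement follows in part from the choice. Each measure was the highest of its region, so with several summits they can belong to different ones. Fold enrichment divides by the local background, and the weakened regions had a background closer to that of the whole genome, with a median of 1.68 times the genome background in the controls and 1.12 to 1.49 times in hypoxia. Over all shared regions these values were 2.31 and 1.32 to 2.03, and in the strengthened regions 1.23 and 1.04 to 1.40, so a low background was not particular to the weakened regions. The genome background itself was 0.926 reads in the controls and 1.85 to 3.25 reads in hypoxia, so the lists differed in depth. The part of depth and background in the choice of regions was not tested.

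The rule used the mean of the 6 hypoxia percentiles, and the single lists are given as a description of it. The controls ranked above all 6 hypoxia lists in 2353 weakened regions (78.4%), against 5366 of all shared regions (14.9%), and above 5 of them in 594 (19.8%). The rule does not require this but makes it more frequent. Each hypoxia list was lower by 20 or more in 59.5% (12 h) to 77.1% (72 h) of the weakened regions, and all 6 lists were in 384 (12.8%). The lowest hypoxia percentile fell at 72 h in 25.0% of them and at 12 h in 10.3%, where the same list was lowest in 17.3% and 20.1% of all shared regions. The 6 hypoxia percentiles of a weakened region spanned a median range of 37.6, and over all shared regions the median range was 30.5.

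The median difference was 26.3 and the largest 67.2. It reached 30 in 998 regions, 40 in 255, 50 in 61 and 60 in 7. Regions on both sides of the threshold had like values. The regions just inside were an intron of Mxi1, a MYC antagonist (control percentile 50.7, hypoxia mean 30.7), and the promoters of Thrap3 (46.5 and 26.4) and Rab11fip2 (70.6 and 50.6). Just outside, with differences of 19.985 to 19.995, were a region 70499 bp from the start of Pvrl1 (29.7 and 9.76), the promoter of Lsm5 (95.5 and 75.5) and an intron of Ano4 (49.8 and 29.8). The rule can take no region below a control percentile of 20: of the shared regions between 20 and 40 in the controls 2.69% were kept, and of those between 60 and 80 16.6%.

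The 10 regions with the largest differences were weak to moderate peaks, with 19 to 30 control reads, and all lay away from promoters except that of Adam33. The largest was in an intron of Suclg2, a subunit of the mitochondrial enzyme that makes succinate from succinyl-CoA (chr6:95619226-95619794). Its percentile was 81.3 in the controls and, in order of time, 12.6, 19.4, 10.3, 1.32, 31.8 and 9.29 in hypoxia. It had 22 reads in the controls (95% Poisson interval 13.8 to 33.3) and 15, 20, 13, 9, 23 and 13 in hypoxia. The hypoxia lists were all far below the controls in percentile, while the reads overlapped, since 48 h had 1 read more than the controls in a list of higher depth.

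The promoter of Adam33, a membrane metalloprotease, followed, at percentile 72.2 in the controls and 4.26, 9.19, 7.60, 0.485, 3.97 and 12.8 in hypoxia. All 6 times lay near the bottom of the ranking, with 8 to 16 reads against 19. A region 82648 bp from the start of Usp12, which encodes a deubiquitinase, had 30 reads in the controls and 22, 15, 15, 19, 22 and 21 in hypoxia, so that every hypoxia list had fewer reads than the shallower control list. The same held for an intron of Prrc2c, with 30 reads in the controls and 12 to 26 in hypoxia. An intron of B4galnt3, a glycosyltransferase gene, held the AP-1 sequence printed above and went from 77.9 in the controls to 19.9, 39.0, 0.349, 17.7, 28.3 and 0.785.

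The remaining regions of the 10 were exons of Whsc2, a subunit of the negative elongation factor, and of Mrc2, a collagen receptor, introns of Maml3, a Notch coactivator, and Ppp1r12b, a myosin phosphatase subunit, and an intergenic site 73503 bp from Mkln1. Their differences were 59.1 to 60.1. The regions of Maml3, Mkln1 and Ppp1r12b each came back to percentile 63.6 at 12 h, against 86.9, 84.3 and 87.7 in the controls, and were between 6.21 and 35.3 at the other times. Ranked by summit reads, the 10 regions differed by 29.4 to 46.1 percentiles.

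**Figure D2:**
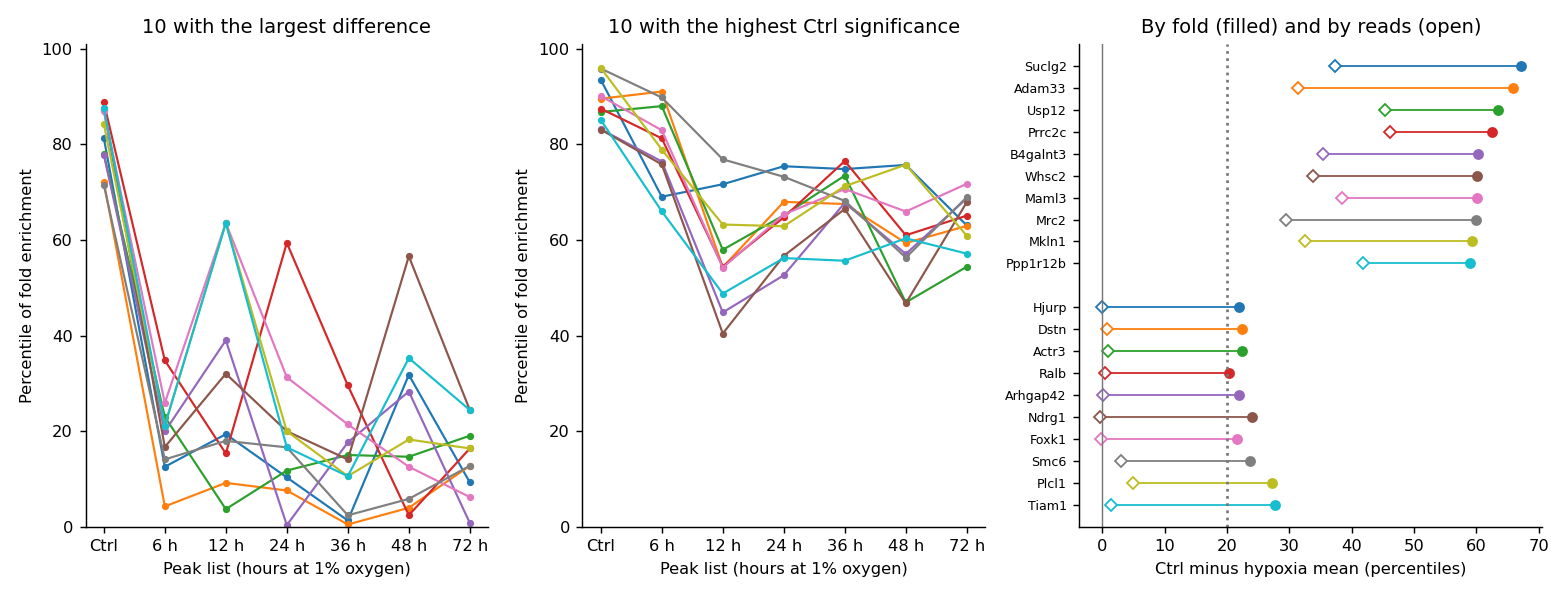
Percentile of fold enrichment in the 7 peak lists for the 10 weakened regions with the largest difference (left) and the 10 with the highest control −log10 q (middle), 1 line per region, and the difference between the controls and the hypoxia mean by fold enrichment (filled) and by summit reads (open) for the same 20 regions (right, named by the gene they lie in or nearest). The strongest regions all lie beyond 20 by fold enrichment and below 5 by reads.

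In the strongest weakened regions the differences by fold enrichment and by reads were further apart. The 10 with the highest control −log10 q had 104 to 168 control reads, and 6 of them were promoters: those of Hjurp, the chaperone of the centromeric histone CENP-A, shared with Trpm8, of the actin regulators Dstn and Actr3, of the small GTPase gene Ralb, of Gen1 and Smc6, which act in DNA repair, and of Tiam1, an activator of Rac. The others were introns of Arhgap42, Foxk1 and Plcl1 and an intergenic site 10322 bp from Ndrg1, a gene known to be induced by hypoxia. The Hjurp promoter had percentiles of 93.5 in the controls and 69.0, 71.7, 75.4, 74.8, 75.7 and 63.1 in hypoxia, with 168 reads and 142, 213, 193, 163, 201 and 166. Over all shared regions the median reads were 26 in the controls and 31, 52, 40, 34, 46 and 35 in hypoxia. By fold enrichment these 10 regions differed by 20.3 to 27.8, and by summit reads by −0.272 to 4.90. The highest control reads of any shared region were 203, so these regions stood at the top of the read ranking. A change in reads moves a rank little there, so the small difference does not show level reads. Over all 146 weakened regions with 60 or more control reads the median difference was 23.5 by fold enrichment and 7.02 by reads. Of these, 5.48% were lower by 20 in reads. Their median read percentile was 91.9 in the controls and, as a mean over the hypoxia lists, 84.9, so the same limit holds for them. In weakened regions with 20 to 29 control reads the medians were 27.8 and 20.1, and 50.4% were lower by 20 in reads.

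The sequences of 22 factors or factor families were looked for on either strand, up to 100 bp from the control summit. That of CTCF was found in 104 weakened regions, 3.47% (exact 95% interval 2.84 to 4.18), against 1.37% of all shared regions and 0.496% of the strengthened regions. Seen from the side of the sequence, 104 of the 495 shared regions with it were weakened, 21.0% (17.5 to 24.9), where 8.31% of all shared regions were, and 16 (3.23%) were strengthened, where 8.93% were. The intervals cover counting error only, and neighbouring regions are not independent. The share was 0.511% of the regions that were higher in hypoxia by over 30 percentiles and 0.488% of those higher by 20 to 30, and from there it rose through 1.23% at a difference of 0 to 10, to 3.10% at 20 to 30 and 5.10% at 40 or more.

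**Figure D3:**
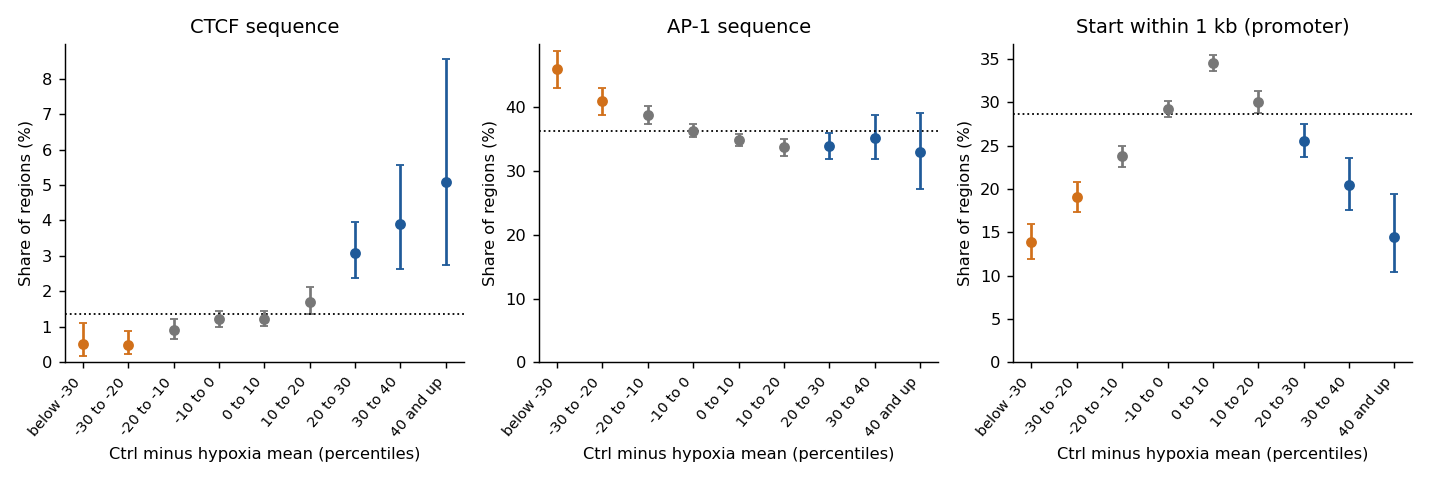
Share of shared regions with a CTCF sequence, with an AP-1 sequence and with a start of a protein-coding gene within 1 kb, by the difference between the control percentile and the hypoxia mean, with exact 95% intervals and the share over all shared regions (dotted line). Blue marks the weakened and orange the strengthened regions. CTCF lies at 0.511% and 0.488% in the strengthened regions and reaches 5.10%. AP-1 falls from 46.0% to 33.7% at a difference of 10 to 20 and is 32.9% at 40 or more. Promoters are most frequent near a difference of 0.

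The CTCF share was higher among weakened regions both at and outside promoters, and at every control level that held weakened regions. Outside promoters the sequence was in 90 of 2299 weakened regions (3.91%) and 413 of 25776 shared regions, and at promoters in 14 of 701 and 82 of 10337 (0.793%). Between control percentiles 20 and 40 it was in 5.15% of weakened regions and 1.86% of shared regions, and between 80 and 100 in 1.95% and 0.665%. Of the CTCF regions, 10.7% were lower by 20 in summit reads, where 5.29% of all shared regions were, and 17.0% in −log10 q, where 7.33% were. Allowing 1 mismatch, an alternative added after the values were seen, gave 290 weakened of 2115 shared regions (13.7%), and the 1620 regions that matched only with the mismatch gave 11.5%.

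The 495 shared regions with a CTCF sequence were weak peaks in every list. Their median percentile was 37.2 in the controls and 27.8, 28.3, 27.0, 26.1, 31.8 and 32.6 in hypoxia, so all 6 medians lay below the control value. By summit reads the medians were 28.2 in the controls and 26.0, 14.9, 19.6, 20.9, 20.7 and 24.5 in hypoxia. The median number of reads was 17 in the controls and 21 to 29 in hypoxia, or 0.654 of that of all shared regions in the controls and 0.558 (12 h) to 0.710 (6 h) in hypoxia. At 6 h and 72 h this ratio lay above that of the controls, and at 12 to 48 h below it. The regions were narrow, with a median of 606 bp against 797 bp, and 8.89% of them held an AP-1 sequence, against 36.3% of all shared regions.

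**Figure D4:**
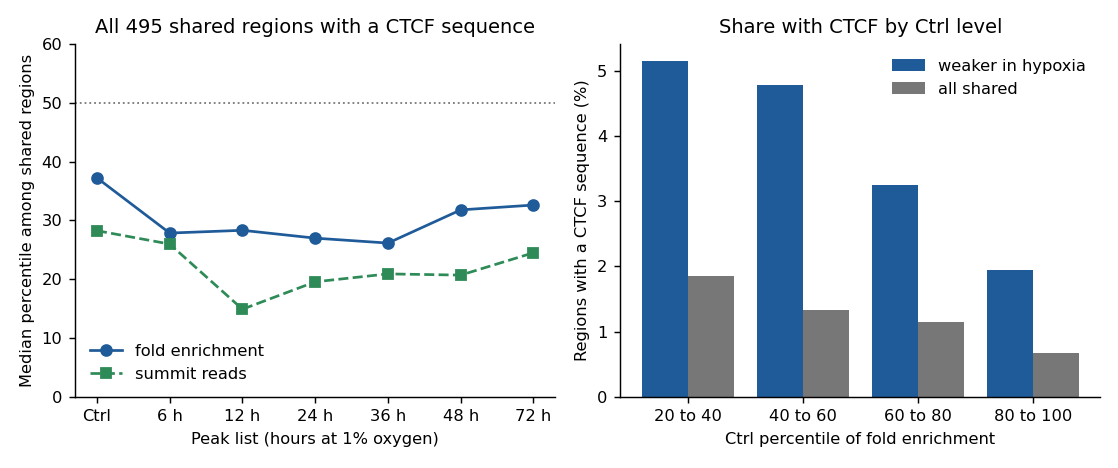
Left, the median percentile of fold enrichment and of summit reads of the 495 shared regions with a CTCF sequence in each peak list, at 37.2 and 28.2 in the controls and lower in each hypoxia list. Right, the share of weakened and of all shared regions with a CTCF sequence in 4 ranges of the control percentile, higher among the weakened regions in each range.

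The 6 CTCF regions printed above were picked for their differences, so their values are a description. The region nearest to Tspan14, a tetraspanin gene, stood at percentile 73.9 in the controls and at 16.7, 14.9, 34.1, 25.4, 12.0 and 7.99 in hypoxia, with 25 reads in the controls and 16, 22, 25, 17, 23 and 18. The one near Wipi1, an autophagy gene, had 33 reads in the controls and 20, 32, 17, 17, 32 and 13 in hypoxia, below the controls at every time. The one near Lrrc10 went from 92.2 to between 15.4 and 63.1. That in Lrig3, a gene for a membrane protein with leucine-rich repeats, went from 63.8 to between 5.23 and 37.4, and had more reads than its 20 in the controls at 12, 48 and 72 h. The region 240981 bp from Bmp2, a secreted growth factor, went from 77.6 to between 17.7 and 50.9.

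Apart from the rare p53 sequence, the other sequences differed less as a ratio of frequencies, while RUNX and SP/KLF differed by more percentage points. The RUNX sequence TGTGGT was in 24.0% of weakened and 20.0% of shared regions, the TEAD sequence ACATTCC in 7.27% and 5.95%, and the E-box CACGTG, bound by MYC and related factors, in 5.33% and 4.22%. The SP/KLF sequence GGGCGG was in 19.2% and 21.7%. Of the regions with the RUNX, TEAD and E-box sequences 9.97%, 10.1% and 10.5% were weakened. The AP-1 sequence TGACTCA was less frequent, in 34.2% of weakened regions, 36.3% of all shared regions and 42.8% of strengthened regions. The lower share was not particular to the weakened regions. It was 34.8% at a difference of 0 to 10 and 33.7% at 10 to 20, against 33.9% at 20 to 30 and 35.3% at 30 to 40. Between control percentiles 20 and 40 AP-1 was in 27.8% of weakened and 36.3% of shared regions, and between 80 and 100 in 36.3% and 36.6%. AP-1 sequences were rare at promoters (7.96% of shared promoters), and outside them the shares were 42.3%, 47.6% and 49.3%. The HIF core, ACGTG or GCGTG, which every CACGTG contains, was in 30.4% of weakened and 31.8% of shared regions, and 7.95% of the regions with it were weakened. E2F sequences were in 1.30% of weakened and 1.14% of shared regions but in 0.310% of strengthened ones. The NFY sequence CCAAT was in 27.7% of weakened promoters and 34.1% of shared promoters. The p53 sequence was found in 14 shared regions, 3 of them weakened, too few to place.

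**Figure D5:**
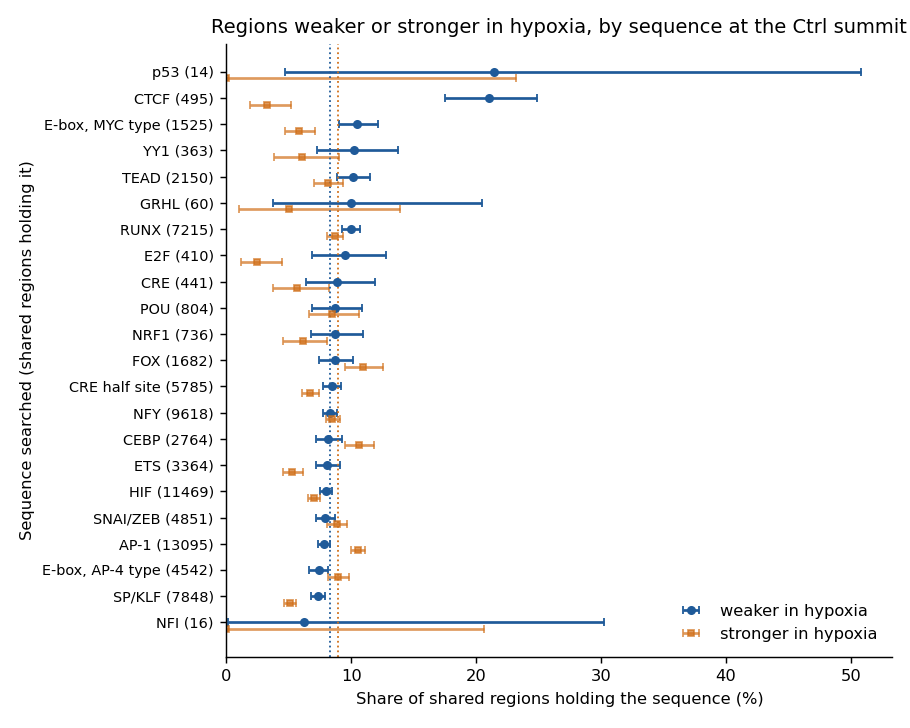
For each of the 22 sequences searched at the control summit, the share of the shared regions holding it that were weakened (blue) or strengthened (orange) in hypoxia, with exact 95% intervals and, as dotted lines, the shares over all shared regions, 8.31% and 8.93%. CTCF lies apart at 21.0% and 3.23%, and p53, NFI and GRHL rest on 60 regions or fewer; the E-boxes of MYC and AP-4 type are CACGTG and CAGCTG.

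Promoters were less frequent among regions whose rank moved either way. A start of a protein-coding gene lay within 1 kb of 701 weakened regions, 23.4% (21.9 to 24.9), against 28.6% of all shared regions and 17.1% of strengthened regions. Put differently, 6.78% of shared promoter regions were weakened, 948 of the 10535 in introns, 9.60% of those in exons and 8.84% of intergenic ones. Among shared regions with a control percentile between 44.2 and 88.6, the range of the middle 80% of weakened regions, 31.5% were promoters. The lower share was not seen at every control level. Between control percentiles 20 and 40 promoters made up 25.3% of weakened and 22.8% of shared regions. From 40 to 60 the shares were 20.9% and 27.6%, from 60 to 80 24.5% and 32.2%, and from 80 to 100 23.7% and 39.1%. With fewer than 20 control reads they were 18.2% and 17.9%. Weakened promoters went from a median percentile of 69.3 in the controls to 44.2 at 6 h and 36.8 at 72 h, and weakened regions elsewhere from 67.6 to 32.6 and 30.4. The median GC content of the bases around the summit was 49.8% in weakened and 50.7% in all shared regions, and the median region width was 720 bp and 797 bp.

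Of 10420 protein-coding genes with a shared region at a promoter, 747 (7.17%) had a weakened region there and 596 (5.72%) a strengthened one. Genes were grouped in 17 lists chosen with earlier results of these data known, and are not evidence of a direction. Of 26 HIF target genes with a shared promoter region 4 had a weakened one, Ldha, Car12, Ddit4 and Aldoa, and 1 a strengthened one, Egln3, which encodes a HIF hydroxylase. Of 17 glycolysis genes Ldha and Aldoa had a weakened region and Aldoc a strengthened one. Ldha, the muscle-type subunit of lactate dehydrogenase, which makes lactate in glycolysis, had a percentile of 65.2 in the controls and 41.7, 23.4, 34.6, 23.4, 27.5 and 39.8 in hypoxia. Its reads were 33 in the controls and 25, 48, 49, 36, 47 and 38, and its difference fell from 33.4 by fold enrichment to 13.0 by reads. Car12, a membrane carbonic anhydrase that regulates pH outside the cell, went from 57.3 to between 9.29 and 43.4, with 16 reads in the controls and 13 to 28 in hypoxia.

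Of 18 genes of epithelial junctions and identity, 3 had a weakened promoter region: Ovol2, a transcription factor that maintains the epithelial state, and the keratins Krt19 and Krt8. The Ovol2 region had the largest difference among all promoters of listed genes, 45.9, from 67.3 in the controls to 10.8, 30.3, 19.2, 7.98, 33.5 and 27.0. It had 24 reads in the controls and 21, 32, 26, 15, 27 and 21 in hypoxia, and it differed by 27.7 in rank by reads. Krt19 went from 72.0 to between 27.5 and 59.8. Of 12 genes of TEAD and YAP signalling 3 did, Tead1, Yap1 and Amotl1, the last of which ranked 5.75 at 6 h and 77.1 at 48 h against 77.7 in the controls. Smad3, which carries TGF-beta signals to the nucleus, had weakened regions at 2 promoters. The stronger difference, 37.2, went from 57.8 to 1.19 at 6 h and back to 45 at 72 h. Bmpr1a, a BMP receptor, went from 73.7 to between 30.4 and 61.0.

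Of 32 genes of oxidative phosphorylation 4 had a weakened promoter region, among them Ndufs3, Ndufs7 and Cox4i1, and none a strengthened one. Ndufs7, a complex I subunit, had 24 reads in the controls and 31, 36, 15, 21, 28 and 31 in hypoxia, with percentiles of 71.7 and 16.6 to 66.3. Of 14 genes of the NRF2 response Nqo1 and Slc7a11, a quinone reductase and the cystine transporter, had a weakened one and Pgd a strengthened one. Slc7a11 had 44 control reads, 17 at 6 h and 35 to 58 later, and percentiles of 60.8, 15.4 and 26.2 to 41.1. Of 70 genes of cytosolic ribosomal proteins 4 were weakened, among them Rpl3, Rpl11 and Rps15a, and 7 strengthened. The promoter of Rpl3 had 25 reads in the controls and 21, 31, 18, 15, 26 and 20 in hypoxia, and differed by 37.6 by fold enrichment and 33.4 by reads. Of 25 cell cycle genes Cdk4 alone had a weakened promoter region. None was seen for 18 genes of the unfolded protein and amino acid stress response, 25 of DNA replication, 15 of the circadian clock, 8 mammary lineage factors and 10 factors discussed in the study, while Pole, of DNA replication, had a strengthened one. Of 11 genes listed as AP-1 subunits Mafk alone had a weakened one, and it encodes a small Maf protein outside the Fos and Jun family. Of 8 genes of the mesenchymal transition Zeb2 had one, and of 13 chromatin demethylase genes Kdm2b and Tet2, with Kdm1a strengthened.

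As a check of the cell type, 7 of 8 epithelial markers had an open promoter in every list, Epcam and Cdh1 among them, and Cldn7 had no peak there. Of 7 immune markers Csf1r had one in every list, Lyz2 and Sfpi1 in 1, and Ptprc, Cd3e and Itgam had none. Of 7 fibroblast and endothelial markers Col1a2 and Pdgfra had one in every list, Col1a1 in 5, Pecam1 in 4 and Pdgfrb, Cdh5 and Kdr in none, and that of Col1a2 was a weakened region. An open promoter does not show that a gene is transcribed.

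Weakened regions were scattered over the genome, and on the autosomes and chromosome X they made up 7.05% (chromosome 3) to 10.7% (chromosome 15) of the shared regions. Another weakened region lay within 100 kb of 1025 of them (34.2%), and 33.6% of the strengthened regions had another of their kind as near. Joined at gaps of up to 100 kb they formed 2419 groups, 1975 of a region alone and 22 of 4 or more. No group held more than 6, and 3 of those with 6 are described. On chromosome 15 (chr15:80863326-81191580) 6 of 9 shared regions were weakened, 3 of them in introns of Mkl1, a cofactor of serum response factor, 1 upstream of it, 1 near Mchr1 and 1 at the promoter of Slc25a17, a peroxisomal carrier. Their differences were 20.0 to 34.7, and the median over all 9 shared regions was 23.6. On chromosome 7 (chr7:134888669-135169000) 6 of 16 were weakened, among them the promoters of Fbxl19, Setd1a, a histone methyltransferase, and Stx4a, a syntaxin. On chromosome 1 (chr1:137649286-137855516) 6 of 17 were, near Phlda3, in Tnni1, in Pkp1, which encodes a desmosomal plaque protein, and at Igfn1. The largest difference there, 50.5, was 5432 bp from the start of Phlda3. In these last groups the median over all shared regions was 4.47 and 7.12, and most of their shared regions lay under the threshold.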

How the data were processed

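Bulk ATAC-seq of 4T1 cells was analysed from 7 deposited narrow peak lists. Per the methods and the submitters' processing notes, paired reads were aligned by the authors with Bowtie2 2.1.0 to mm9. Mitochondrial reads were dropped and Picard 1.79 took out duplicates. Both replicates were then merged, and peaks were called with MACS2 (version not given in the sources used here). The fold enrichment that was deposited is a ratio, the reads at a summit over the local background, with 1 added to each. The deposited −log10 p and −log10 q belong to the same summit. The lists reach down to −log10 q of 1.30, a q of 0.05. Nothing is scaled between lists, so values were compared as percentiles within a list.

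The whole number of reads that gives both the deposited fold enrichment and −log10 p was found for every summit, with a largest error of 0.000204 in −log10 p. Where a region held several peaks, the highest value was taken for each measure. Motifs, GC content and genes came from NCBIM37 with the GENCODE annotation of that build (22238 protein-coding genes), around the control summit with the highest fold enrichment. An exon or intron was assigned only where no start lay within 1 kb. The genome carried no repeat marking, so the repeat share was not computed. In all 22 searches an exact match was asked, except 1 mismatch for p53. The CTCF, p53 and NFI sequences are named only. CACGTG contains the HIF core and the CRE sequence contains TGACG, which was also searched.

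The regions named were the 10 with the largest difference, the 10 with the highest control −log10 q, up to 15 promoters of listed genes, 3 on each side of the threshold and the 3 largest groups of neighbours; a further group also held 6 members and ranked behind on its share of shared regions. The CTCF examples and promoters of listed genes beyond the 15 were named after their values were seen. Members and gene lists were chosen with earlier results of these data known. Some genes are not reported here. Scripts were tested on simulated lists. Shares have exact (Clopper-Pearson) 95% intervals. Calculations ran in Python 3.11.15 with scipy 1.17.1, numpy 2.4.6, pandas 2.3.3 and, for figures, matplotlib 3.10.9.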

Additional observations from a re-analysis of the deposited data

How the results depend on the processing

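No paired analysis was possible because the lists pool the replicates. The number of weakened regions, 3000 as reported, became 1909 ranked by summit reads, 8016 at a difference of 10, 998 at 30 and 384 where every hypoxia list had to be lower by 20, and 2869 to 3205 with each hypoxia list left out in turn. The promoter share of 23.4% became 27.5% at a difference of 10, 18.9% at 30, 18.5% with every list lower by 20, 20.0% with 1 peak interval in every list (25.7% of shared regions there), 28.0% with peaks of −log10 q of 5 or more (32.5%) and 31.8% within 5 kb (37.0%), and 21.5% to 26.1% with a list left out, the highest without 6 h. It was below that of the shared regions in all 21 settings, though not at every control level. The AP-1 share of 34.2% became 30.5% with every list lower by 20 and 40.4% within 250 bp (43.3% of shared regions), 33.1% to 35.1% with a list left out, and was below that of the shared regions in all 20 settings. The CTCF share of 3.47% became 2.78% ranked by summit reads, 2.37% at a difference of 10, 4.21% at 30, 5.99% with every list lower by 20, 2.35% with peaks of −log10 q of 5 or more (0.898% of shared regions), 9.67% with 1 mismatch (5.86%), which was added after seeing the data, and 3.22% to 3.72% with a list left out. It was above that of the shared regions in all 21 settings. The settings counted for promoters, AP-1 and CTCF include the reported one and hold many of the same regions. Their agreement in direction is therefore not independent support. The median GC content lay between 49.3% and 50.2% with a list left out. Ranking by −log10 q, the median over the hypoxia lists, the nearest hypoxia summit, autosomes only and merging only where a base is shared moved none of the 5 results beyond their interval or 1.5 times the count. For GC content that interval was the quartiles of single regions, 44.8% to 56.7%, which is too wide to show whether the median moved. Which of the alternatives to fold enrichment is nearest to the accessibility of a region was not tested. Values per replicate were not used here, so the spread between replicates is unknown. Most single weakened regions were not placed beyond counting error.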
